A study of Oryza sativa Japonica Group with 12 samples.

Results

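The 8 genes described here encode the enzymes that carry nitrogen from nitrate into glutamate in rice (Oryza sativa, Japonica group). They were chosen by locus number from the 29358 loci of the deposited table: the nitrate reductases NIA1 (LOC_Os08g36480) and NR2 (LOC_Os02g53130), the nitrite reductase NiR (LOC_Os01g25484), the glutamine synthetases GS1-1 (LOC_Os02g50240), GS1-2 (LOC_Os03g12290) and GS2 (LOC_Os04g56400), and the glutamate synthases NADH-GOGAT1 (LOC_Os01g48960) and NADH-GOGAT2 (LOC_Os05g48200). Messenger RNA was sequenced from whole seedlings aged 5 days, and the values are FPKM, fragments scaled to gene length and to the library's mapped fragments. There were 4 groups of 3 libraries each: wild type (WT, the cultivar abbreviated NIP in the labels) untreated, WT after 6 h in 800 mM mannitol, raf-b2/3 untreated, and raf-b2/3 after the same mannitol treatment. Mannitol is a sugar alcohol that draws water out of plant cells and so imposes osmotic stress. Controls are recorded at 0 mM and 0 h of mannitol. Changes with mannitol are differences between these groups, and the part of harvest time or handling in them was not tested. The line raf-b2/3 is called a knockdown of B2/3 RAF protein kinases in the genotype label and a mutant in the protocols. The labels name none of the kinase loci, so the knockdown was not checked here, and they do not say how many lines were used.

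Plants take up nitrate and reduce it in the cytosol to nitrite with nitrate reductase. Nitrite enters the plastid, where nitrite reductase, fed with electrons by ferredoxin, makes ammonium. Glutamine synthetase joins ammonium to glutamate, and glutamate synthase (GOGAT) then passes the amide nitrogen on to make more glutamate. The cytosolic GS1 forms serve ammonium taken up by roots and nitrogen moved between organs, whereas the plastid form GS2 also recaptures the ammonium that photorespiration releases in green leaves. In rice, GS1-2 and NADH-GOGAT1 are known for their part in assimilating ammonium in roots, GS1-1 for supporting growth and grain filling, and NADH-GOGAT2 for nitrogen export from ageing leaves.

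The libraries rested on 37534831 to 39792486 fragments each, as recovered from the FPKM values (median 38767825). The labels do not state whether replicate libraries were made from seedlings grown apart, so each p-value reflects only the spread among the deposited libraries, which could be technical. Mannitol and control libraries lay apart on the first principal component (71.6% of the variance), and Pearson's r across genes within groups was 0.981 to 0.993. Both root and green shoot markers were detected in every library, so the RNA held both organs. WT control 2 differed from its group in root markers: the summed FPKM of 5 root genes was 115 there, against 450 and 500 in WT controls 1 and 3. In raf-b2/3 control 2, 4 of the 8 nitrogen assimilation genes had their highest value of all 12 libraries, as did 8.5% of all tested loci. Values without one of these libraries are given where leaving it out ended a call or moved a result most. In another run WT control 2 and raf-b2/3 mannitol 3 were left out together, as libraries that stood apart in these data. WT control 2 lay at -33.7 on the third principal component, against 5.29 and -1.28 for WT controls 1 and 3. On the second, raf-b2/3 mannitol 3 lay at -15.2, against -34.6 and -31.6 for raf-b2/3 mannitol 1 and 2.

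After mannitol most of these enzymes had less transcript in both genotypes, and the exceptions were GS1-1, NR2 and, in WT, NADH-GOGAT1; the difference between the responses of the genotypes passed for none of the 8. In WT 5 of the 8 genes fell (NIA1, NiR, GS1-2, GS2 and NADH-GOGAT2), 1 rose (GS1-1) and 2 did not pass the test (NR2 and NADH-GOGAT1). In raf-b2/3 the same 5 genes and NADH-GOGAT1 fell, GS1-1 rose, and NR2 did not pass. The test was limma-trend on log2(FPKM + 1), with a Benjamini-Hochberg adjusted p under 0.05 over all 22371 loci tested counted as a change. By that rule 63.3% of all tested loci changed in WT (25.5% lower and 37.7% higher) and 62.2% in raf-b2/3 (26.7% lower and 35.6% higher). The median log2 change of the 8 genes was -0.65 in WT and -0.66 in raf-b2/3, beside 0.09 and 0.07 for all tested loci. Under quantile normalization the WT median of all loci moved by -0.11 on the log2 scale, and the WT split of calls became 6743 higher and 7057 lower in place of 8440 and 5711.

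**Figure D1:**
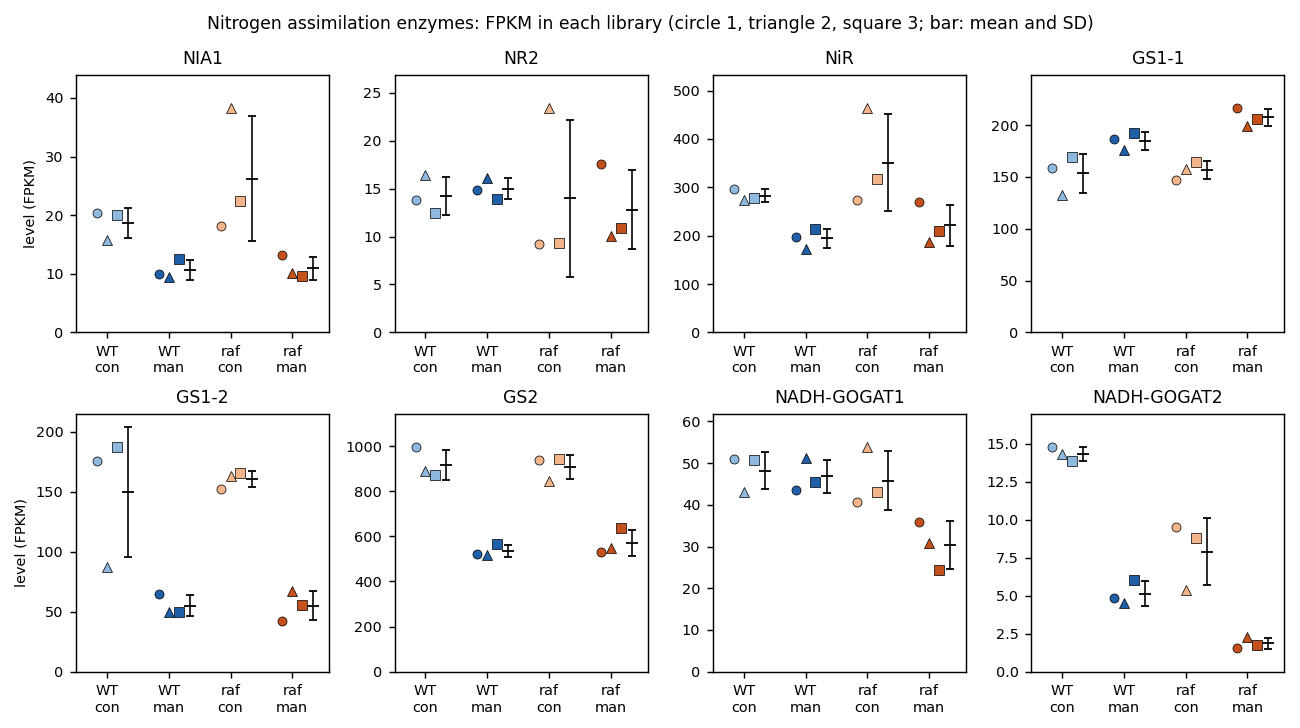
FPKM of the 8 genes in each of the 12 libraries (linear axes from 0; circles, triangles and squares are libraries 1, 2 and 3), with the group mean and SD (n = 3) as a dash and whiskers, for each genotype without (con) and with (man) mannitol. GS2 was the most abundant in every group, with means from 534 to 918 FPKM, and NADH-GOGAT2 in raf-b2/3 under mannitol had the lowest mean, 1.87 FPKM.

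FPKM levels, which are per gene length, spanned a wide range. In WT control the order of group means was GS2 (918 FPKM), NiR (283), GS1-1 (153), GS1-2 (150), NADH-GOGAT1 (48.2), NIA1 (18.7), NADH-GOGAT2 (14.3) and NR2 (14.2). GS1-1 and GS1-2 overlapped between libraries, as did NR2 with NIA1 and with NADH-GOGAT2. In WT mannitol GS2 stayed first at 534 FPKM, NiR (194) and GS1-1 (185) overlapped, GS1-2 (55.0) overlapped NADH-GOGAT1 (46.8), and NADH-GOGAT2 (5.13) stood last, below NIA1 (10.6) and NR2 (15.0). The lowest fragment number behind any of these values was 400, for NADH-GOGAT2, and the highest was 88886, for GS2.

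Nitrate reduction was represented by a pair of nitrate reductase genes that behaved differently under mannitol. NIA1, a nitrate reductase, stood at 20.4, 15.8 and 20.0 FPKM in WT control libraries 1, 2 and 3, and at 9.91, 9.42 and 12.6 FPKM in WT mannitol. In raf-b2/3 it stood at 18.1, 38.3 and 22.4 FPKM without mannitol and at 13.1, 10.1 and 9.62 with it. All mannitol libraries lay below all control libraries of their genotype, and raf-b2/3 control 2 was the highest of the 12. The fall was 1.76-fold in WT (means 18.7 ± 2.57 and 10.6 ± 1.71 FPKM, SD, n = 3), a log2 change of -0.76 (SE 0.22, limma adjusted p 0.0093). In raf-b2/3 it was 2.40-fold (26.3 ± 10.6 to 10.9 ± 1.91), a log2 change of -1.13 (limma adjusted p 0.00074), and -0.84 without raf-b2/3 control 2 (adjusted p 0.001).

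NR2, the other nitrate reductase, stood at 13.8, 16.4 and 12.5 FPKM in WT control and at 14.9, 16.1 and 13.9 in WT mannitol. In raf-b2/3 its libraries read 9.25, 23.4 and 9.29 FPKM without mannitol and 17.5, 10.1 and 10.9 with it. The groups overlapped in every comparison. The log2 change with mannitol was 0.08 in WT (95% interval -0.55 to 0.70, limma adjusted p 0.83) and -0.03 in raf-b2/3 (-0.65 to 0.60, limma adjusted p 0.94). Without raf-b2/3 control 2, again the highest library, the raf-b2/3 value became 0.39 (adjusted p 0.094).

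Within a library the log2 ratio of NR2 to NIA1 was therefore higher under mannitol. It moved from a mean of -0.37 to 0.47 in WT and from -0.92 to 0.18 in raf-b2/3, a mean difference of 0.97 (exact permutation test, two-sided, p 0.005, the smallest that the 400 arrangements within genotypes allow; adjusted p 0.0125 over 10 such tests on 5 ratios). Here and below, 1 was added to each side of a ratio, so it depended little on library scaling where levels were well above 1 FPKM. Averaged over both treatments the ratio was lower in raf-b2/3 by 0.42 (exact permutation p 0.03, adjusted p 0.05, not under the threshold), and the adjusted p was 0.044 without raf-b2/3 control 2, 0.042 without WT control 3 or raf-b2/3 mannitol 1, and 0.025 without WT mannitol 3.

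Nitrite reductase fell moderately. NiR stood at 298, 273 and 279 FPKM in WT control and at 197, 173 and 213 in WT mannitol. The raf-b2/3 libraries read 273, 464 and 317 FPKM without mannitol and 269, 186 and 210 with it. Groups did not overlap within a genotype, although raf-b2/3 control 1 and raf-b2/3 mannitol 1 lay close together. The log2 change was -0.54 in WT (SE 0.18, limma adjusted p 0.017) and -0.64 in raf-b2/3 (SE 0.18, limma adjusted p 0.0069). The WT call ended without WT mannitol 2 (log2 -0.46, adjusted p 0.066) and under quantile normalization (-0.35, adjusted p 0.11). Leaving out raf-b2/3 control 2 brought the raf-b2/3 change to -0.42 (adjusted p 0.024).

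The NiR level relative to both nitrate reductases summed stayed near a log2 ratio of 3: group means were 3.06 in WT control, 2.87 in WT mannitol, 3.15 in raf-b2/3 control and 3.18 in raf-b2/3 mannitol. Neither the mannitol difference of -0.08 (exact permutation adjusted p 0.456) nor the genotype difference of 0.20 (0.0786) passed. Both passed without raf-b2/3 control 2, at -0.15 (adjusted p 0.0357) and 0.26 (adjusted p 0.01).

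The 3 glutamine synthetase genes went in different directions under mannitol: GS1-2 had the largest log2 fall of the 3, the plastid enzyme GS2 fell too, and GS1-1 rose slightly. GS1-2, a cytosolic form, stood at 176, 87.4 and 187 FPKM in WT control and at 65.2, 49.8 and 50.1 in WT mannitol. In raf-b2/3 it read 153, 163 and 166 FPKM without mannitol and 42.5, 66.9 and 55.9 with it. WT control 2 lay well below the other control libraries but above every mannitol library. The mean fell 2.73-fold in WT (log2 -1.37, SE 0.24, limma adjusted p 0.00038) and 2.92-fold in raf-b2/3 (log2 -1.55, SE 0.24, limma adjusted p 0.00015). Without WT control 2 the WT change was -1.71 (adjusted p 3.6e-06).

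GS2, the plastid form, stood at 994, 889 and 871 FPKM in WT control and at 520, 519 and 564 in WT mannitol. Its raf-b2/3 libraries read 938, 847 and 942 FPKM without mannitol and 529, 548 and 635 with it. The control and mannitol ranges were far apart in both genotypes. GS2 fell 1.72-fold in WT (918 ± 66.3 to 534 ± 25.9 FPKM, log2 -0.78, SE 0.09, limma adjusted p 1.6e-05) and 1.59-fold in raf-b2/3 (909 ± 53.7 to 571 ± 56.5, log2 -0.67, SE 0.09, limma adjusted p 6.2e-05).

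GS1-1, the other cytosolic form, stood at 159, 132 and 169 FPKM in WT control and at 186, 176 and 192 in WT mannitol. The raf-b2/3 libraries read 147, 158 and 164 FPKM without mannitol and 216, 199 and 206 with it. Every mannitol library was above every control library of its genotype, by little in WT. GS1-1 rose 1.33-fold in raf-b2/3 (log2 0.41, SE 0.09, limma adjusted p 0.0015) and 1.20-fold in WT (log2 0.27, SE 0.09, limma adjusted p 0.016). The WT call ended without WT control 2 (0.17, adjusted p 0.068), without WT mannitol 3 (0.25, adjusted p 0.055), under median-of-ratios scaling (0.16, adjusted p 0.11) and by limma-voom on recovered fragments (0.17, adjusted p 0.11). Glutamine synthetase genes are alike in sequence, and how reads shared between copies were counted is not given in the sources used here.

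The makeup of glutamine synthetase transcript changed accordingly. GS1-2 made up 12.1% ± 3.80 of the summed FPKM of the 3 genes in WT control and 7.12% ± 1.18 in WT mannitol (SD, n = 3), and 13.1% ± 0.825 and 6.61% ± 1.45 in raf-b2/3. The share of GS1-1 went from 12.6% ± 1.07 to 23.9% ± 0.278 in WT and from 12.8% ± 0.818 to 25.0% ± 2.27 in raf-b2/3. GS2 had the largest share in all 4 groups: it went from 75.3% ± 4.63 to 69.0% ± 1.42 in WT and from 74.1% ± 1.63 to 68.4% ± 2.05 in raf-b2/3. The summed level fell from 1221 ± 110 to 774 ± 31.0 FPKM in WT and from 1226 ± 52.9 to 833 ± 57.0 in raf-b2/3.

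**Figure D2:**
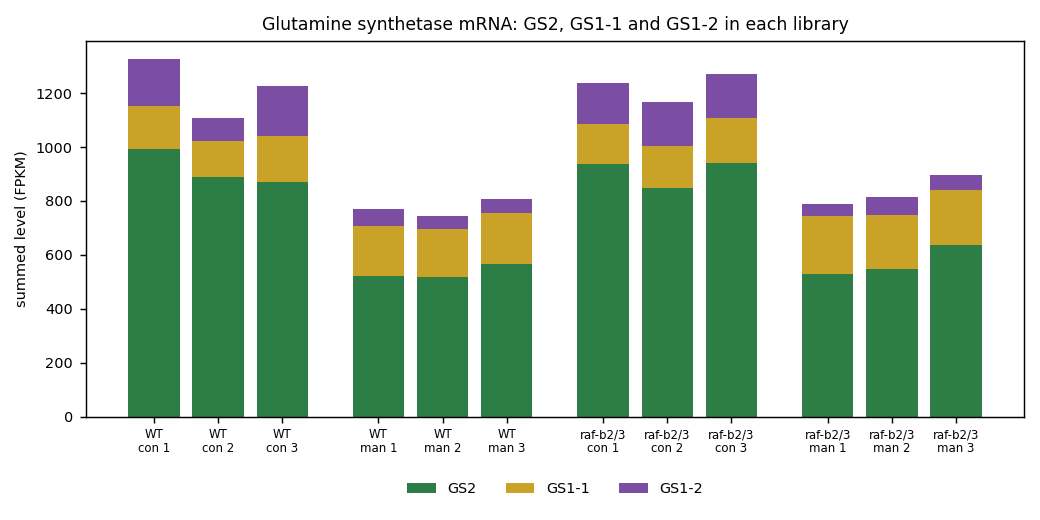
Summed FPKM of GS1-1, GS1-2 and GS2 in each of the 12 libraries, stacked (linear axis from 0). The sum was about 1221 and 1226 FPKM on average in the WT and raf-b2/3 controls and 774 and 833 under mannitol, with GS1-1 taking 23.9% and 25.0% of it under mannitol.

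On the log2 scale the ratio of GS1-2 to GS1-1 averaged -0.10 in WT control, -1.74 in WT mannitol, 0.04 in raf-b2/3 control and -1.92 in raf-b2/3 mannitol. The mannitol difference was -1.80 (exact permutation p 0.005, adjusted p 0.0125), a shift toward GS1-1. Among WT controls the ratio ran from -0.59 to 0.14, and WT control 2, the lowest, already had more GS1-1 than GS1-2. The ratio of GS2 to the sum of GS1-1 and GS1-2 was lower under mannitol by 0.44 on the log2 scale (exact permutation p 0.005, adjusted p 0.0125). Neither ratio passed between genotypes (-0.02 and -0.07, exact permutation adjusted p 0.915 and 0.661).

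Some markers of the organs fell under mannitol as well. Of 5 root markers (LSI1, LSI2, RCC3, YSL15 and IRT1, none at 0 in any library) all but IRT1, 4 genes, fell under mannitol in each genotype. For RCC3 the WT groups overlapped, with WT control 2 at 39.4 FPKM and the WT mannitol libraries at 37.2 to 45.1. The summed FPKM of the 5 ranged from 115 to 500 in WT control and 77.1 to 86.4 in WT mannitol. In raf-b2/3 it ranged from 552 to 662 in control and 60.8 to 89.7 in mannitol. Of 6 green shoot markers (none at 0) 3 fell in each genotype, RBCS2, RBCS4 and RCA (1.94- to 2.57-fold), which serve carbon fixation, and 3 did not pass, the photosystem genes CAB1R, CAB2R and PSBO (log2 -0.25 to 0.25). The sums of the 6 were 22558 to 24935 FPKM in WT control, 12638 to 15074 in WT mannitol, 23093 to 25809 in raf-b2/3 control and 14188 to 16958 in raf-b2/3 mannitol. The sum of 2 seed storage genes was 2.55 to 3.66 FPKM in all libraries. GS1-2 was low in WT control 2, the control library with low root markers, whereas NADH-GOGAT2 in that library (14.3 FPKM) lay between the other WT controls. NIA1 (15.8 FPKM), NiR (273), GS1-1 (132) and NADH-GOGAT1 (43.0) were also lowest of the WT controls in that library, NR2 (16.4) was highest and GS2 (889) lay between. In RNA from whole seedlings, fewer cells of a type and less RNA per cell cannot be told apart, and the part of organ makeup in these changes was not tested.

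**Figure D3:**
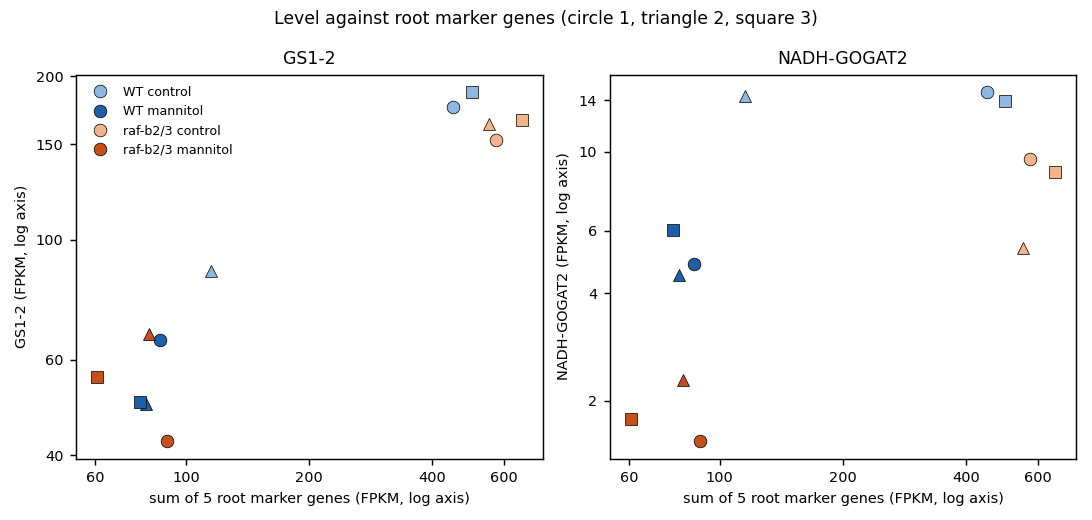
Level of GS1-2 (left) and NADH-GOGAT2 (right) against the summed FPKM of 5 root marker genes in the 12 libraries (both axes log scaled; circles, triangles and squares are libraries 1, 2 and 3). The WT control triangle, with a root marker sum of 115 FPKM, was low for GS1-2 (87.4 FPKM) and level with its group for NADH-GOGAT2 (14.3 FPKM).

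Of the 8 genes, only the NADH-dependent glutamate synthases were called between the genotypes by limma-trend. NADH-GOGAT2 stood at 14.7, 14.3 and 13.9 FPKM in WT control and at 4.84, 4.52 and 6.05 in WT mannitol. Its raf-b2/3 libraries read 9.53, 5.38 and 8.77 FPKM without mannitol and 1.54, 2.28 and 1.78 with it. Within each genotype mannitol libraries lay below controls, and within each treatment raf-b2/3 lay below WT, with no overlap in any of these comparisons. With mannitol the mean was 2.79-fold lower in WT (log2 -1.33, SE 0.17, limma adjusted p 2.4e-05) and 4.23-fold lower in raf-b2/3 (log2 -1.61, SE 0.17, limma adjusted p 6e-06). The latter change was -1.83 without raf-b2/3 control 2 (adjusted p 7.6e-07). A log2 change of FPKM + 1 understates the change of a gene at such low levels.

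Under mannitol NADH-GOGAT2 was 2.75-fold lower in raf-b2/3 than in WT (1.87 ± 0.377 against 5.13 ± 0.808 FPKM, SD, n = 3; log2 -1.10, SE 0.17, limma adjusted p 0.0011). Without mannitol it was 1.81-fold lower (7.90 ± 2.21 against 14.3 ± 0.434; log2 -0.82, SE 0.17, limma adjusted p 0.03). The call under mannitol held in every alternative run, with log2 differences from -1.20 to -0.99 when single libraries were left out. The one without mannitol ended in 9 of 20 alternatives, with log2 differences of -0.96 to -0.59 and adjusted p of 0.024 to 0.12. It ended without WT control 1 (adjusted p 0.075), WT control 2 (0.087), WT control 3 (0.068), WT mannitol 1 (0.051), raf-b2/3 control 3 (0.056) or raf-b2/3 control 2 (log2 -0.59, adjusted p 0.061), the lowest library of its group.

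NADH-GOGAT1, the form known from ammonium assimilation in rice roots, stood at 50.9, 43.0 and 50.7 FPKM in WT control and at 43.7, 51.1 and 45.6 in WT mannitol. In raf-b2/3 it read 40.5, 53.7 and 43.1 FPKM without mannitol and 35.8, 30.9 and 24.4 with it. The raf-b2/3 mannitol libraries were the lowest 3 of the 12, and the other groups overlapped. In raf-b2/3 NADH-GOGAT1 was 1.51-fold lower with mannitol (log2 -0.58, SE 0.14, limma adjusted p 0.0026, and -0.46 with adjusted p 0.012 without raf-b2/3 control 2), whereas the WT change was -0.04 (95% interval -0.34 to 0.25, limma adjusted p 0.81). Under mannitol it was 1.54-fold lower in raf-b2/3 than in WT (30.4 ± 5.71 against 46.8 ± 3.87 FPKM; log2 -0.62, SE 0.14, limma adjusted p 0.0089), and without mannitol the difference was -0.08 (limma adjusted p 0.84). The difference between the mannitol responses of the genotypes was -0.54 (SE 0.19), with a limma p of 0.015 and an adjusted p of 0.17, and so did not pass.

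Within libraries the balance of the pair shifted toward NADH-GOGAT1 with mannitol. The log2 ratio of NADH-GOGAT2 to NADH-GOGAT1 averaged -1.68 in WT control, -2.97 in WT mannitol, -2.42 in raf-b2/3 control and -3.45 in raf-b2/3 mannitol. The added 1 made this ratio less negative, most so in raf-b2/3 mannitol, where NADH-GOGAT2 read 1.54 to 2.28 FPKM. Differences that involve that group are therefore understated. The mannitol difference was -1.16 (exact permutation p 0.005, adjusted p 0.0125) and the genotype difference -0.61 (exact permutation p 0.01, adjusted p 0.02). The genotype call ended without WT control 1 (-0.62, adjusted p 0.05) and without WT control 2 (-0.57, adjusted p 0.06).

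**Figure D4:**
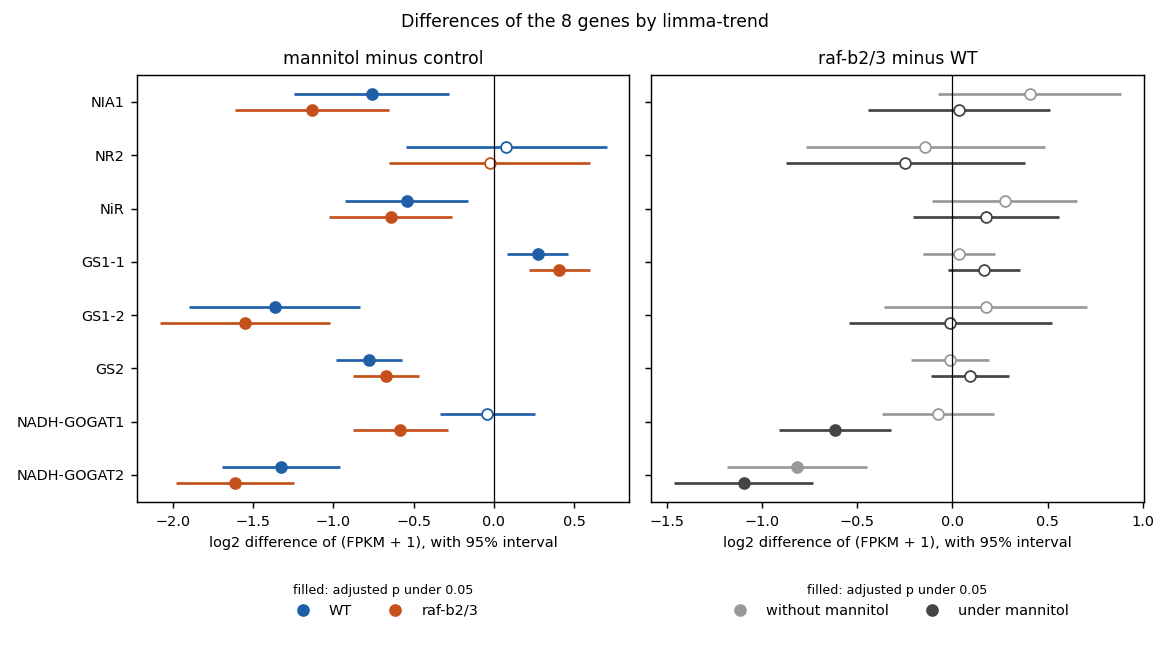
Log2 differences of the 8 genes by limma-trend with 95% intervals, for mannitol minus control in WT and raf-b2/3 (left) and for raf-b2/3 minus WT without and under mannitol (right), on the log2(FPKM + 1) scale. Filled points had an adjusted p under 0.05: 6 genes in WT and 7 in raf-b2/3 on the left, and on the right NADH-GOGAT2 in both conditions and NADH-GOGAT1 under mannitol.

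Counted over the 8 genes, raf-b2/3 differed from WT in 1 gene without mannitol, lower, and in 2 under mannitol, both lower. Of all tested loci 1.81% were called without mannitol (0.59% lower, 1.22% higher) and 15.8% under mannitol (7.47% lower, 8.37% higher). The median difference of the 8 genes was 0.01 in both conditions, beside 0.01 and -0.01 for all loci. The 2 genes called were the NADH-dependent glutamate synthases, and none of the reductases or glutamine synthetases was called. Among the latter, GS1-1 under mannitol did not overlap between genotypes (176 to 192 FPKM in WT, 199 to 216 in raf-b2/3), with a log2 difference of 0.17 (95% interval -0.02 to 0.36, limma adjusted p 0.23). The intervals of the uncalled differences were widest for NR2, -0.77 to 0.48 without mannitol and -0.88 to 0.38 under it, and reached from -0.07 to 0.89 for NIA1 without mannitol. That NIA1 difference, 0.41, became 0.11 without raf-b2/3 control 2, and the corresponding NiR difference went from 0.28 to 0.057 and the NR2 difference from -0.14 to -0.56 (limma adjusted p 0.84, 0.91 and 0.26).

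For the genotype by mannitol interaction limma-trend called 0 of the 8 genes, against 2.98% of all tested loci (1.96% lower and 1.02% higher). At an unadjusted p under 0.05 there was 1, NADH-GOGAT1, and the share of all tested loci at that threshold was not counted. By limma-voom on recovered fragments the counts were also 0 and 1. Of the 22371 tested loci limma-voom called 139 higher and 197 lower at an adjusted p under 0.05. The interaction estimates of the 8 genes ran from -0.54 to 0.13, with a median of -0.14.

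The authors' deposited table gives its own log2 fold changes for mannitol against control, with p-values not stated to be raw or adjusted. For NADH-GOGAT2 the authors' deposited table has -1.59 in WT and -2.16 in raf-b2/3. The genes with p above 0.05 in the authors' deposited table were, in WT, NR2 (-0.04, p 0.759), GS1-1 (0.16, p 0.0741) and NADH-GOGAT1 (-0.15, p 0.0702), and, in raf-b2/3, NR2 (-0.20, p 0.697).

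Of 25 further genes of the pathway, 23 had enough signal to be tested. In WT 10 rose, 4 fell and 9 did not pass with mannitol (median log2 0.24), and in raf-b2/3 the counts were also 10, 4 and 9 (median 0.14). Of all tested loci 37.7% rose and 25.5% fell in WT, and 35.6% rose and 26.7% fell in raf-b2/3. By role, 2 of 3 tested glutamate dehydrogenase genes rose in WT and 3 in raf-b2/3, and 1 of 2 asparagine synthetase genes rose in each genotype. Among 4 ferredoxin-NADP reductase genes, which pass electrons between ferredoxin and NADPH, 2 rose and 1 fell in each genotype, and among 4 transcription factor genes 2 rose and 1 fell. Of the 7 aminotransferase genes, which move amino groups between glutamate and other amino acids, 2 rose and 1 fell in WT, and 1 rose and 1 fell in raf-b2/3.

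Fd-GOGAT (LOC_Os07g46460), the ferredoxin-dependent glutamate synthase that works beside GS2 in leaf plastids, fell from 443 ± 57.1 to 197 ± 20.6 FPKM in WT and from 539 ± 25.4 to 233 ± 9.54 in raf-b2/3 (SD, n = 3). Its log2 changes were -1.17 and -1.21 (limma adjusted p 8.2e-07 and 9e-07). FNR-leaf-b (LOC_Os06g01850), a leaf-type ferredoxin-NADP reductase, fell from 588 ± 37.6 to 293 ± 30.4 FPKM in WT (log2 -1.01, limma adjusted p 1.2e-05). In raf-b2/3 it fell from 579 ± 73.7 to 407 ± 49.1 (-0.51, limma adjusted p 0.0026). The difference between the FNR-leaf-b responses of the genotypes was 0.50 (SE 0.17, limma adjusted p 0.14) and did not pass. Going the other way, GDH2 (LOC_Os04g45970), a glutamate dehydrogenase, an enzyme that interconverts glutamate with ammonium and 2-oxoglutarate, rose from 22.3 ± 3.64 to 69.0 ± 4.21 FPKM in WT and from 26.1 ± 1.58 to 87.2 ± 12.9 in raf-b2/3. Its log2 changes were 1.60 and 1.69 (limma adjusted p 3.7e-07 and 3.5e-07).

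GS1-3 (LOC_Os03g50490), the third cytosolic glutamine synthetase, stood below 1 FPKM in every control library and rose with mannitol in both genotypes. It stood at 0.382, 0.765 and 0.687 FPKM in WT control and at 9.75, 13.4 and 8.24 in WT mannitol. In raf-b2/3 it read 0.919, 0.674 and 0.542 FPKM without mannitol and 2.89, 3.82 and 3.37 with it. Every mannitol library lay above every control, and every WT mannitol library above every raf-b2/3 mannitol library. Only the mannitol libraries reached the 1 FPKM that a gene needed in 3 libraries to be tested. The log2 changes were 2.81 in WT and 1.35 in raf-b2/3 (limma adjusted p 4.4e-08 and 1.9e-05), and the interaction was -1.46 (SE 0.23, limma adjusted p 0.0063), which limma-voom on recovered fragments put at -1.83 with an adjusted p of 0.12. Of the 23 tested further genes GS1-3 was the only 1 called for the interaction by limma-trend, against 2.98% of all tested loci. Even in WT mannitol GS1-3 stood far below GS1-1 (10.5 ± 2.65 against 185 ± 8.25 FPKM).

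NIA2 (LOC_Os08g36500), the nitrate reductase gene whose locus number adjoins that of NIA1, had mean FPKM of 1.48 in WT control, 0.953 in WT mannitol, 1.48 in raf-b2/3 control and 0.862 in raf-b2/3 mannitol. Its log2 changes were -0.34 and -0.39 (limma adjusted p 0.12 and 0.072). The raf-b2/3 change was called by limma-voom on recovered fragments (-0.82, adjusted p 0.039), under quantile normalization (-0.45, adjusted p 0.038) and without raf-b2/3 control 1 (-0.56, adjusted p 0.019). The level was low, and reads of the more abundant NIA1 could have been assigned to it. A further nitrite reductase gene, NiR-like (LOC_Os02g52730), ranged from 0.132 to 0.547 FPKM in 11 libraries and read 2.44 in raf-b2/3 mannitol 3. It was not tested, nor was GDH3 (LOC_Os02g43470), at 0.0171 to 1.03 FPKM.

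Between genotypes none of the 23 passed without mannitol by limma-trend, where 1.81% of all tested loci did. At an unadjusted p under 0.05 there were 2, and the share of all tested loci at that threshold was not counted. Under mannitol 2 were higher and 2 lower in raf-b2/3, where 8.37% of all tested loci were higher and 7.47% lower. The lower ones were GS1-3 (log2 -1.38, limma adjusted p 0.00019) and AlaAT-a (LOC_Os10g25130, -0.33, limma adjusted p 0.039), an alanine aminotransferase gene. The higher ones were FNR-leaf-b (0.47, limma adjusted p 0.017) and GDH1 (LOC_Os03g58040), a glutamate dehydrogenase gene, at 96.2 ± 13.2 against 59.6 ± 2.14 FPKM (0.67, limma adjusted p 0.0015). GDH1 and AlaAT-a were named after their values were seen. The call of FNR-leaf-b ended without WT mannitol 1, WT mannitol 2 or raf-b2/3 mannitol 3 (adjusted p 0.079, 0.068 and 0.059) and with WT control 2 and raf-b2/3 mannitol 3 both left out (0.062). That of AlaAT-a ended without WT mannitol 1 or 2, raf-b2/3 control 1 or raf-b2/3 mannitol 1 or 3 (adjusted p 0.053 to 0.16), with the same 2 libraries left out (0.075) and with the replicate block (0.061).

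For each of the 8 genes the most similar profile was sought among the other 7 and the 23 tested pathway genes, by Pearson's r of log2(FPKM + 1) over the 12 libraries, which share the mannitol contrast. NIA1 and NiR were nearest to each other (r 0.966), both with their highest value in raf-b2/3 control 2. GS2 and GS1-2 were both nearest to Fd-GOGAT (r 0.959 and 0.926), and GS1-1 was nearest to GDH2 (0.906). NADH-GOGAT1 and NADH-GOGAT2 were both nearest to AspAT-a (LOC_Os02g55420), an aspartate aminotransferase gene (0.696 and 0.812). NR2 had no close partner, its best being NADH-GOGAT1 at 0.473. NADH-GOGAT2 had the widest range of group means (2.43 on the log2 scale), and over the 22370 other tested loci the nearest were LOC_Os10g09684 (0.975), LOC_Os01g70520 (0.971) and LOC_Os08g37605 (0.965), for which the table gives no names.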

How the data were processed

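The authors deposited 1 table of FPKM values for the 12 libraries, with their own log2 fold changes and p-values per genotype. Trimmomatic, DESeq2, edgeR and the build IRGSP-1.0 are listed, with no versions or order, in the submitters' processing notes. The kit was strand-specific, per the labels' protocols. For the aligner and for strand use in counting, nothing is stated in the sources used here, so antisense reads may not have been told apart.

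A locus was tested if its FPKM reached 1 in 3 libraries, which 22371 of 29358 did, all 8 genes among them. limma-trend (limma 3.58.1, R 4.3.3) was fitted to log2(FPKM + 1), with a mean for each of the 4 groups. Log2 ratios between genes, with 1 added to each side, were compared with exact permutation tests within strata (numpy 2.4.6). Whole fragments were recovered from the FPKM steps for 29311 of the 29358 loci, or 99.84% (tolerance 0.01 fragment). Limma-voom on them, which called 7054 loci higher and 6804 lower in WT and 6800 and 6967 in raf-b2/3, other scalings, another pseudocount, no filter, a replicate block and left-out libraries were the alternatives. Scripts were tested on simulated data.

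Names come from a list written by hand. Against a reference gene table (assembly ASM3414082v1), 5 of the 8 matched by symbol and chromosome. Order was kept wherever another matched gene of the lists lay on the same chromosome. For NIA1 and NADH-GOGAT2 there was no such gene, so their order was not checked. NR2, NiR and NADH-GOGAT1 had no symbol in that reference, and their names rest on the list alone, as do 14 of the 25 further names. No promoter, transcript or protein sequences were used here.

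The 8 genes and the lists were chosen with earlier results of these data known. Named were all 8 genes, NIA2, NiR-like, GS1-3, Fd-GOGAT, further pathway genes called with a log2 change of 1 or more in size, and the nearest profiles. GDH1, AlaAT-a, GDH3, ASN1 and NIGT1 were named outside this rule, after their values were seen.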

Additional observations from a re-analysis of the deposited data

Results flagged for a closer look

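The response of GS1-3 to mannitol differed between the genotypes by the limma interaction test. The difference of the log2 changes was -1.46 (SE 0.23, limma adjusted p 0.0063), from 2.81 in WT and 1.35 in raf-b2/3, and it ran from -1.61 to -1.29 when single libraries were left out. By limma-voom on recovered fragments it was -1.83 with an adjusted p of 0.12. GS1-3 stood below 1 FPKM in all 6 control libraries, where the added 1 of the log scale weighs most. It therefore passed the filter for testing, an FPKM of 1 in 3 libraries, only through its mannitol libraries.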

How the results depend on the processing

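Of 16 called changes of the 8 genes, 13 kept their call under all 20 alternatives. The other 3 were NiR and GS1-1 in WT and NADH-GOGAT2 between genotypes without mannitol, described above. Of 24 uncalled differences 0 were called under any alternative. Leaving out single libraries, the WT count of genes that rose ran from 0 to 1, and the count lower in raf-b2/3 without mannitol from 0 to 1. The first became 0 under median-of-ratios scaling, by limma-voom and with the pair WT control 2 and raf-b2/3 mannitol 3 left out. The second became 0 with the replicate block (adjusted p 0.053), with these 2 libraries left out (0.1) and with only the 2 groups compared (0.12). The cause was not tested.

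Deviations of same-numbered libraries from their group means correlated at r -0.311 to 0.265 over 18 pairs, 4 above 0.1. Between libraries of different groups and different numbers r ran over a similar range, from -0.276 to 0.327. With 3 libraries a group these values cannot settle whether the numbers pair the samples. With the replicate block the ratio differences stayed at -1.80, -0.44, -1.16 and 0.97 for mannitol and -0.61 for genotype, at an adjusted p of 0.0625 each. That run used a permutation test that flips the signs of paired differences, and each of these results stood at its smallest possible p. An adjusted p under 0.05 would have needed more of the 10 tests at that smallest p.

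The genotype difference in the NADH-GOGAT2 to NADH-GOGAT1 ratio was -0.63 (adjusted p 0.06) without the same 2 libraries and ran from -0.72 to -0.44 with single ones left out. In the same runs the genotype difference ran from -0.50 to -0.31 for NR2 to NIA1, from 0.16 to 0.26 for NiR to both nitrate reductases, from -0.14 to 0.083 for GS1-2 to GS1-1, and from -0.16 to 0.024 for GS2 to the GS1 pair. The mannitol difference for NiR to both ran from -0.15 to -0.042.

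Some uncalled differences changed sign. NR2 in WT became -0.028 under median-of-ratios scaling, -0.075 under quantile normalization and -0.023 by limma-voom. Under quantile normalization GS1-2 under mannitol became 0.0019 and GS2 without mannitol 0.039 between genotypes. Without WT control 2 and raf-b2/3 mannitol 3, NR2 in raf-b2/3 became 0.063, GS1-1 and GS1-2 between genotypes without mannitol -0.069 and -0.17, and the GS1-2 interaction 0.14. With single libraries left out, the mannitol change ran from -0.0066 to 0.18 for NR2 in WT, -0.26 to 0.39 for NR2 in raf-b2/3 and -0.12 to 0.0061 for NADH-GOGAT1 in WT. The genotype difference without mannitol ran from -0.56 to 0.066 for NR2, -0.069 to 0.11 for GS1-1, -0.17 to 0.37 for GS1-2, -0.050 to 0.045 for GS2, -0.20 to 0.0022 for NADH-GOGAT1 and -0.018 to 0.16 for GS1-3. Under mannitol it ran from -0.094 to 0.15 for NIA1 and -0.16 to 0.16 for GS1-2. The interaction ran from -0.34 to 0.31 for NR2, -0.26 to 0.12 for NiR and -0.38 to 0.16 for GS1-2.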

Other observations

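Of the 33 nitrogen assimilation genes, raf-b2/3 control 2 held the highest of the 12 values for 7: NIA1, NR2, NiR and NADH-GOGAT1 among the 8 genes, and ASN1 (LOC_Os03g18130, an asparagine synthetase gene), AspAT-a and NIGT1 (LOC_Os02g22020, a nitrate-responsive transcription factor gene) among the others. ASN1 read 140 FPKM there and 113 in the next library, and NIGT1 read 3.08 and 2.28. For AspAT-a the highest 2 libraries were 120.3 and 119.9 FPKM. WT mannitol 1 likewise held the highest value for 7, all among the 25 further genes. Of all tested loci 8.5% had their highest value in raf-b2/3 control 2 and 9.3% in WT mannitol 1, and whether the counts differ from these shares was not tested.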
